A study of Mus musculus with 28 samples.

Results

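The 10 genes described here carry the signals that make osteoclasts and the products by which osteoclasts are recognized. They are Tnfsf11, Tnfrsf11a, Tnfrsf11b, Csf1, Csf1r, Acp5, Ctsk, Mmp9, Oscar, and Calcr, picked by symbol for their roles in osteoclasts out of the 52636 genes of the count table. Each was matched to 1 Ensembl gene of the GRCm38 mouse genome. The samples are bulk RNAseq libraries of single first molar tooth germs from wild type C57BL/6JOlaHsd mice, with 7 teeth at E13 (bud stage, labelled E13.5), 7 at E14 (cap stage, E14.5), and 7 at E16 (bell stage, E16.5). No allele or treatment differs between these groups, whose labels differ only in age. The teeth came from 7, 6, and 5 embryos, so that 1 embryo at E14 and 2 embryos at E16 gave both a left and a right tooth, as the L or R in the title is read here. A further table of estimated counts adds 6 teeth from 6 embryos at E15, labelled as wild type lower first molars of the same strain.

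Osteoclasts are large cells with several nuclei that form by fusion of precursors of the monocyte and macrophage lineage and dissolve mineralized matrix. RANK ligand (Tnfsf11) on stromal and bone-forming cells binds RANK (Tnfrsf11a) on the precursors, while osteoprotegerin (Tnfrsf11b) is a soluble decoy that captures the ligand, and the cytokine Csf1 keeps the precursors alive through its receptor Csf1r. Around a tooth germ, osteoclasts remodel the alveolar bone as the tooth grows and later open the path through which it erupts.

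The tooth germs were dissected with little surrounding tissue, and each library holds every cell type of the piece. The counts per library ranged from 17814073 to 27115729 with a median of 23827447. Dental epithelium markers (Shh, Epcam, and others) and dental mesenchyme markers (Msx1, Pax9, Barx1, Lhx6, Lhx8) were present in every library, with summed levels of 323.3 to 1263 and 478.3 to 1704 CPM (counts scaled to a common library size). The left tooth of embryo 3 at E16 stood apart, with the lowest total count (17814073) and the highest scaling factor (1.193). Among the E16 teeth it had the lowest summed levels of mesenchyme (478.3 CPM), epithelium (710.7 CPM), and endothelium (120.5 CPM) markers. It was also lowest for osteoblast (541.7 CPM), cartilage (7.401 CPM), and macrophage (109.4 CPM) markers, but not for neutrophil, skeletal muscle, and red cell markers. In whole tissue, fewer cells of a type and less RNA per cell cannot be told apart. Nothing in the labels says whether teeth of a stage were from separate litters, so that p values measure the spread between these teeth.

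The promoters of 4 members are shown because these genes include the ligand and the 3 members with the largest changes from E13 to E16. RefSeq promoter sequences of GRCm38.p6, 250 bases before to 50 bases after a start site, were searched for 7 of the 10 genes. Csf1r was left out of the search, and no sequence was available for Tnfrsf11b and Mmp9. Of the 3 start sites of Acp5, the one with the most kinds of match is shown. Capitals mark matches on either strand to short motifs of factors that act in osteoclasts. The motifs searched were GGAAA (the core bound by NFAT factors), GAGGAAG (PU.1), TGANTCA (AP-1), TGTGGT (the Runx core), and TCACGTG and TCATGTG (Mitf). The sequences are written 5′ to 3′ on the strand of the gene.
Tnfsf11, chr14:78307994-78308293, minus strand: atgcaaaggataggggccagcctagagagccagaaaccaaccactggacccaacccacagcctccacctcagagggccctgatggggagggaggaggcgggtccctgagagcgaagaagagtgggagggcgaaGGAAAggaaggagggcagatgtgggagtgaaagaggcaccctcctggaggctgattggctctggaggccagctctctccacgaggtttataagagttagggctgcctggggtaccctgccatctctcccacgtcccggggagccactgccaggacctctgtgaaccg
Acp5, start site 3, chr9:22130549-22130848, minus strand: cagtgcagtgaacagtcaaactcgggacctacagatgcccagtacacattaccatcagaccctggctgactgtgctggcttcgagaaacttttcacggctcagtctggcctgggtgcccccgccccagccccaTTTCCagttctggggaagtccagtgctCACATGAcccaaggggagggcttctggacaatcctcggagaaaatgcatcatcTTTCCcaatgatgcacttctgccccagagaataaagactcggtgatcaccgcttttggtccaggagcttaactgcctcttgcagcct
Ctsk, chr3:95498960-95499259, plus strand: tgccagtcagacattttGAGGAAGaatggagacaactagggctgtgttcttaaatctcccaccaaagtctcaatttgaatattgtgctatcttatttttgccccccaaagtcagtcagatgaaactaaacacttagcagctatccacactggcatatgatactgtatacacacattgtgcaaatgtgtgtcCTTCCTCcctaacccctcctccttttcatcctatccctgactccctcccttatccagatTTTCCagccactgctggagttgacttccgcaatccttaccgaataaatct
Oscar, chr7:3616108-3616407, minus strand: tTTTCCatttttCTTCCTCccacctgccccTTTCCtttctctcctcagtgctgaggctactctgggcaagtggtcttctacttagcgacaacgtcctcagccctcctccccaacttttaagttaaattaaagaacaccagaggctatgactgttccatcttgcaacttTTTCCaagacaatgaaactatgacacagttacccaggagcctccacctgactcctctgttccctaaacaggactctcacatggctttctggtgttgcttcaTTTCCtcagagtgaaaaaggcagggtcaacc

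The Ctsk promoter held 2 PU.1 matches, 233 and 59 bases before the start, and 1 NFAT core match at the start base. The Oscar promoter held 4 NFAT core matches and 1 PU.1 match. The third start site of Acp5 held 2 NFAT core matches and 1 match to the Mitf motif TCATGTG, 90 bases before the start. The Tnfsf11 promoter held 1 NFAT core match and no match to the other motifs. Among all 32851 promoters of this length, 61.3% held GGAAA, 13.6% GAGGAAG, 3.77% TCATGTG, 3.77% TCACGTG, 7.81% TGANTCA, and 16.8% TGTGGT. No matches overlapped each other in the promoters shown. A match describes the letters of these windows and is not evidence of a bound site.

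Across development, levels of the osteoclast products rose several-fold, whereas no change of RANK ligand passed the test. The stages were compared gene by gene in edgeR (quasi-likelihood F test), with p values adjusted by Benjamini-Hochberg over the 19101 genes that passed a filter on low counts, and all 10 members passed that filter. At E14 against E13, 7 of the 10 members rose and none fell, where 11.3% of all tested genes rose, 8.47% fell, and 19.7% changed in either direction. At E16 against E14, 7 of 10 rose, where 15% of all tested genes rose, 13.1% fell, and 28.1% changed. At E16 against E13, 8 of 10 rose, where 21.6% of all tested genes rose, 19.6% fell, and 41.3% changed. The median log2 fold change of the 10 members was 0.84, 1.01, and 1.70 in these 3 comparisons, whereas that of all tested genes was -0.00833, 0.00368, and -0.00954. The scaling of the libraries centers the bulk of genes near no change, so that the latter medians largely follow from it. Without the E16 left tooth of embryo 3, 8 of 10 rose at E16 against E14 and 8 at E16 against E13. The comparisons share the teeth of a stage and are not independent of each other. The members were chosen with earlier results of these data known, so that these counts are a description and not a test of the set.

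**Figure D1:**
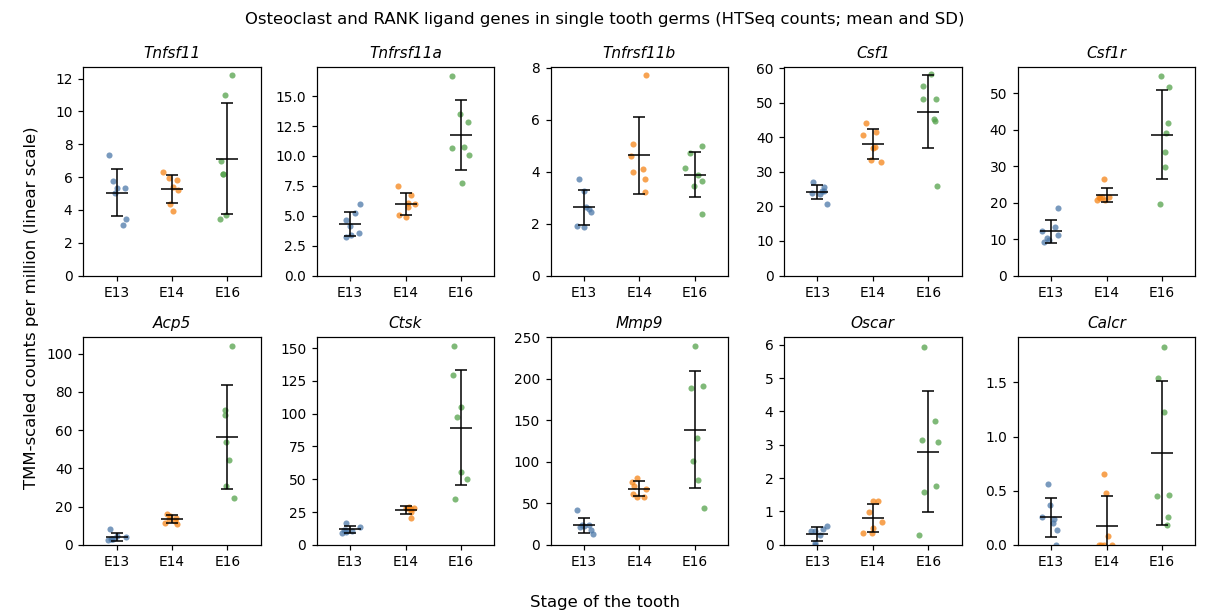
TMM-scaled CPM (linear axes from 0) of the 10 genes in each tooth at E13, E14, and E16. Each point is 1 tooth, bars are the mean and SD of 7 teeth (cut at 0), and the E16 points of Acp5, Ctsk, and Mmp9 spread over a wider range than the E14 points.

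**Figure D2:**
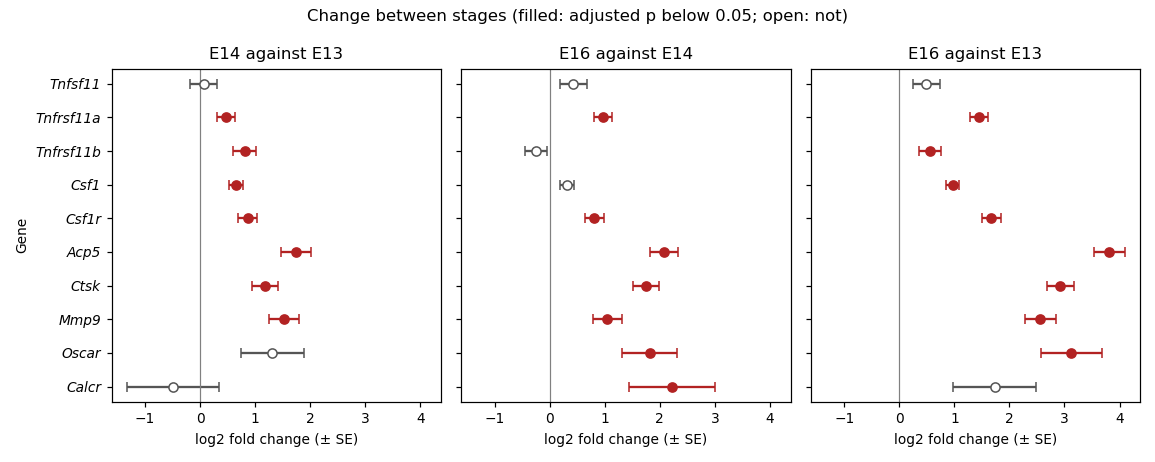
Log2 fold change with its SE for each gene in the 3 comparisons of stages, from the edgeR fit over 21 teeth. Filled points passed an adjusted p of 0.05 and open points did not, and Acp5 is farthest to the right at E16 against E13 with 3.81.

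Tnfsf11 encodes RANK ligand, the signal that drives precursors to become osteoclasts. Its level ranged from 3.08 to 7.34 CPM at E13 (median 5.32), from 3.94 to 6.29 at E14 (median 5.37), and from 3.44 to 12.2 at E16 (median 6.21). The ranges of the 3 stages overlapped, and the E16 teeth included both the lowest value outside E13 and the highest value of all. The log2 fold change was 0.06 ± 0.24 (SE, n = 7 and 7) at E14 against E13 (edgeR adjusted p = 0.888), 0.43 ± 0.24 at E16 against E14 (adjusted p = 0.193), and 0.49 ± 0.24 at E16 against E13 (adjusted p = 0.107). The last value passed the test when the E16 left tooth of embryo 5 (0.62, edgeR adjusted p = 0.0373) or the E16 right tooth of embryo 6 (0.63, adjusted p = 0.0328) was left out, within a range of 0.0328 to 0.903 over all alternatives.

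Tnfrsf11b encodes osteoprotegerin, the decoy receptor that keeps RANK ligand from RANK. Its level ranged from 1.87 to 3.73 CPM at E13 (median 2.55), from 3.21 to 7.71 at E14 (median 4.10), and from 2.35 to 4.997 at E16 (median 3.88). It rose at E14 by a log2 fold change of 0.81 ± 0.20 (edgeR adjusted p = 0.00631), and the value at E16 against E14 was -0.25 ± 0.20 (adjusted p = 0.378). At E16 it was higher than at E13 by 0.56 ± 0.20 (edgeR adjusted p = 0.0318, range 0.0103 to 0.0706 over the alternatives). That call was lost without the E16 right tooth of embryo 7 (adjusted p = 0.0585) or the E13 tooth of embryo 5 (0.0706) or embryo 10 (0.0595). It was also lost with the teeth of an embryo summed (0.0517) and with genes of any count kept (0.0521).

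The balance of ligand and decoy was measured within each tooth as the ratio of Tnfsf11 to Tnfrsf11b counts per kilobase of exon, which does not depend on library scaling. The ratio had a median of 2.47 at E13 (1.17 to 3.73), 1.44 at E14 (0.71 to 2.47), and 1.89 at E16 (1.18 to 4.01), so that the ligand had more counts per kilobase than the decoy in every tooth but the E14 tooth of embryo 1. The difference in mean log2 ratio was -0.69 ± 0.30 (SE) at E14 against E13 (exact permutation test, two-sided, p = 0.0425, adjusted over 3 comparisons p = 0.128). It was 0.53 ± 0.33 at E16 against E14 (exact permutation p = 0.128, adjusted p = 0.192) and -0.16 ± 0.33 at E16 against E13 (exact permutation p = 0.63, adjusted p = 0.63). No comparison passed the adjusted threshold, where the smallest p that the splits of 7 against 7 teeth can give is 0.000583. Without the E13 tooth of embryo 2, which had the lowest ratio of its stage, the first difference was -0.87 (exact permutation test, adjusted p = 0.014, range 0.014 to 0.255 over the alternatives).

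Tnfrsf11a encodes RANK, the receptor on osteoclast precursors. Its level ranged from 3.26 to 5.98 CPM at E13 (median 4.15), from 4.93 to 7.48 at E14 (median 6.02), and from 7.72 to 16.7 at E16 (median 10.8). Every E16 tooth was above every E14 and E13 tooth, whereas the E13 and E14 ranges overlapped. RANK rose by 0.97 ± 0.16 on the log2 scale from E14 to E16 (edgeR adjusted p = 4.69e-05) and by 1.44 ± 0.16 from E13 to E16. The smaller change at E14 against E13, 0.47 ± 0.16, had an edgeR adjusted p of 0.0435 (range 0.0182 to 0.128 over the alternatives). It stayed past the threshold when the E14 tooth of embryo 1 or 3, or the E13 tooth of embryo 3 or 7, was left out, and was lost (adjusted p between 0.0552 and 0.0929) without any 1 of the E14 teeth of embryos 2, 5, 6 (left or right), and 8 or of the E13 teeth of embryos 1, 2, 5, 9, and 10. It was also lost with the teeth of an embryo summed (0.0553) and with genes of any count kept (0.0668).

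Csf1, the cytokine for the survival and growth of macrophages and osteoclast precursors, ranged from 20.6 to 27.0 CPM at E13 (median 24.4), from 32.9 to 44.2 at E14 (median 37.1), and from 26.0 to 58.3 at E16 (median 50.9). The E13 and E14 ranges did not overlap, and the rise was 0.65 ± 0.12 on the log2 scale (edgeR adjusted p = 0.000387). At E16 against E14 the value was 0.31 ± 0.12 (adjusted p = 0.054). The E16 left tooth of embryo 3 had the lowest level of its stage, and without it that difference was 0.43 (edgeR adjusted p = 0.000118). The call was also gained without the E16 left tooth of embryo 5 (0.0498), the E14 tooth of embryo 1 (0.0321), or the E14 tooth of embryo 8 (0.0438), and over all alternatives its adjusted p ranged from 0.000118 to 0.151.

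Csf1r, the receptor for Csf1, is carried by macrophages as well as osteoclast precursors. It ranged from 9.33 to 18.5 CPM at E13 (median 11.3), from 20.8 to 26.4 at E14 (median 21.6), and from 19.6 to 54.7 at E16 (median 39.0). All E14 and E16 teeth were above all E13 teeth. Csf1r rose by 0.86 ± 0.17 on the log2 scale from E13 to E14 (edgeR adjusted p = 0.000891) and by 0.81 ± 0.17 from E14 to E16 (adjusted p = 0.000777). Il34, the second ligand of this receptor, was weakly expressed, with a mean of 0.16 ± 0.14 CPM (SD, n = 7) at E13, 0.66 ± 0.37 at E14, and 0.81 ± 0.24 at E16. It rose by 1.96 ± 0.46 on the log2 scale from E13 to E14 (edgeR adjusted p = 0.00358) and differed by 0.29 ± 0.40 between E14 and E16 (adjusted p = 0.638). In the annotation, exons of Csf1r share 873 bases with Hmgxb3 on the opposite strand, and the strand setting of the counting is not given in the sources used here.

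Acp5 encodes tartrate-resistant acid phosphatase, the enzyme by which osteoclasts are stained. It ranged from 2.60 to 8.16 CPM at E13 (median 3.27), from 10.9 to 16.4 at E14 (median 13.6), and from 24.6 to 104 at E16 (median 53.6). The 3 ranges did not overlap. Acp5 rose by 1.74 ± 0.28 on the log2 scale from E13 to E14 (edgeR adjusted p = 5.74e-05) and by 2.07 ± 0.26 from E14 to E16 (adjusted p = 1.08e-06), and at E16 it was 14.1-fold higher than at E13 (adjusted p = 9.04e-11). Its exons share 137 bases with the noncoding gene 6530413G14Rik on the opposite strand.

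Ctsk encodes cathepsin K, the protease that digests the collagen of bone. It ranged from 9.21 to 16.7 CPM at E13 (median 11.01), from 20.2 to 28.8 at E14 (median 27.7), and from 34.6 to 152 at E16 (median 97.1), again with no overlap between stages. Ctsk rose by 1.18 ± 0.24 on the log2 scale from E13 to E14 (edgeR adjusted p = 0.000924) and by 1.75 ± 0.24 from E14 to E16 (adjusted p = 3.21e-06), and at E16 it was 7.6-fold higher than at E13.

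Mmp9 encodes gelatinase B, a matrix metalloproteinase of osteoclasts that other invading cells also make. It ranged from 12.6 to 41.7 CPM at E13 (median 22.7), from 57.3 to 80.9 at E14 (median 67.3), and from 44.5 to 240 at E16 (median 129). The E13 teeth were below all others, whereas the E16 left tooth of embryo 3 (44.5 CPM) was below the E14 teeth. Mmp9 rose by 1.52 ± 0.27 on the log2 scale from E13 to E14 (edgeR adjusted p = 0.000242) and by 1.05 ± 0.27 from E14 to E16 (adjusted p = 0.00404). At E16 it was 5.9-fold higher than at E13.

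Oscar encodes an immunoglobulin-like receptor of osteoclasts that binds collagen and costimulates their differentiation. It was counted 0 to 12 times per library at E13 (median 9), 9 to 32 times at E14 (median 16), and 8 to 153 times at E16 (median 58). Neighboring stages overlapped, and the E16 right tooth of embryo 6, with 8 counts, lay within the E13 range. The change at E14 against E13 was 1.31 ± 0.57 on the log2 scale (edgeR adjusted p = 0.106). Oscar rose by 1.81 ± 0.50 from E14 to E16 (adjusted p = 0.00796) and was 8.72-fold higher at E16 than at E13 (adjusted p = 6.39e-05).

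Calcr encodes the calcitonin receptor, a late osteoclast gene through which calcitonin halts resorption. It had 0 to 12 counts per library at E13 (median 5), 0 to 16 at E14 (median 0), and 5 to 47 at E16 (median 12). Its ranges overlapped between all stages at these low counts. The log2 fold change was -0.49 ± 0.84 at E14 against E13 (edgeR adjusted p = 0.732) and 1.73 ± 0.76 at E16 against E13 (adjusted p = 0.0714). At E16 against E14 it was 2.23 ± 0.78 (edgeR adjusted p = 0.0345, range 0.00791 to 0.085 over the alternatives). This call was lost without the E16 left tooth of embryo 6 (adjusted p = 0.085), the E16 tooth of embryo 7 (0.0706), or any 1 of the E14 teeth of embryos 1, 3, 5, 6 (right), and 8 (0.0598 to 0.0661). It was also lost with side as a factor (0.0549), genes of any count kept (0.0522), or only these 2 stages in the fit (0.0556).

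Levels of different genes were compared as TPM, which divides counts by exon length before scaling to a common total. At E13 Ctsk (22.8 ± 5.22, SD) and Mmp9 (19.9 ± 8.38) were highest, with Csf1 next (13.6 ± 1.94), and the ranges of each neighboring pair overlapped down to Tnfrsf11a. Csf1 lay above Tnfsf11 without the tooth of embryo 3 or 10, and Acp5 above Tnfrsf11b without that of embryo 10. At E14 Mmp9 (63.6 ± 7.21) and Ctsk (58.8 ± 7.43) overlapped with each other and lay above Csf1 (24.2 ± 2.79) and Acp5 (22.2 ± 3.90). Tnfsf11 and Tnfrsf11b overlapped at E14, but not without the tooth of embryo 1. At E16 the mean TPM of Ctsk was 166 ± 103, that of Mmp9 108 ± 64.9, and that of Acp5 77.4 ± 46.2, against 9.07 ± 5.37 for Tnfsf11, 5.36 ± 1.61 for Tnfrsf11a, and 3.86 ± 1.39 for Tnfrsf11b. The right tooth of embryo 7 at E16 had low TPM for its CPM (9.001 TPM and 54.94 CPM for Csf1), and Gm23935, an annotated miRNA gene of 57 bases, took 51.1% of its TPM against at most 27% in any other tooth. Neighbors in the E16 order overlapped at every step over the 7 teeth, but without that tooth Acp5 lay above Csf1, and within each of the 7 teeth Ctsk was above Mmp9, Acp5 above Csf1, Csf1 above Csf1r, and Csf1r above Tnfsf11. Without that tooth or without the left tooth of embryo 6, Tnfrsf11b lay above Calcr. Calcr was lowest at each stage, with a mean of 0.18, 0.15, and 0.57 TPM.

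The E16 teeth differed widely from each other in the osteoclast products. The coefficient of variation over the 7 teeth was 48.1% for Acp5, 49.1% for Ctsk, 50.5% for Mmp9, and 47.6% for Tnfsf11 at E16, whereas at E14 it was 15.2%, 11.3%, 13.4%, and 16.2%. Both embryos with paired teeth at E16 had the higher values in the left tooth for these genes and for Oscar. In embryo 6, the left tooth had 2672 Acp5 counts and the right 665, and Ctsk had 3900 and 936.

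The same pair had 6166 and 2114 counts of Mmp9, 153 and 8 of Oscar, and 284 and 93 of Tnfsf11. In contrast, Csf1 had 1500 and 1379 counts, and Tnfrsf11b had 89 and 99. In CPM, the left tooth of embryo 8 exceeded the right 2.23-fold for Acp5, 1.95-fold for Ctsk, 1.89-fold for Mmp9, 2.33-fold for Oscar, and 1.97-fold for Tnfsf11, while Csf1 was 1.13-fold and Tnfrsf11b 0.94-fold. The paired teeth of embryo 6 at E14 were within 1.32-fold of each other for 9 of the members, with the exception of Calcr at 16 and 2 counts. With 2 pairs at E16 and 1 at E14, the sides were not tested.

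Markers of macrophages, osteoblasts, skeletal muscle, and other cell types were summed in the same teeth. The 13 macrophage markers (Adgre1, Cd68, Lyz2, and others) ranged from 109.4 to 138.3 CPM over the E16 teeth, with 137 and 128.3 CPM in the left and right teeth of embryo 6. The 10 osteoblast markers ranged from 541.7 to 1031 CPM, with 1031 and 961.9 CPM in that pair. This sum mainly reflects Runx2 (mean 484 ± 71.4 CPM, SD, at E16) and Alpl (224 ± 78 CPM). The lowest osteoblast sum was in the left tooth of embryo 3, which was also lowest for Csf1, Csf1r, and Mmp9 yet second highest for Ctsk. The 8 skeletal muscle markers summed to 54.44 CPM in the right tooth of embryo 6, the highest of the stage, and to 4.818 CPM in its left tooth. They summed to 5.262 and 2.249 CPM in the right and left teeth of embryo 8 and to between 1.009 and 13.64 CPM in the other 3 teeth. Muscle marker sums were thus higher in the right tooth of both pairs, the tooth with less Acp5, Ctsk, Mmp9, Oscar, and Tnfsf11. The same held for red cell markers (57.02 against 44.41 CPM in embryo 6 and 67.43 against 41.38 in embryo 8). It also held for dental epithelium markers (1169 against 1085 and 1194 against 1094) and neutrophil markers (1.773 against 1.36 and 2.649 against 0.7768). Macrophage sums were higher in the left tooth of both pairs (136.5 against 124.4 CPM in embryo 8). Sums of the other lists differed in direction between the pairs. The part of surrounding tissue or other cells in these differences was not tested. Without the right tooth of embryo 6, 7 of 10 members rose at E16 against E14 and 9, with Tnfsf11 added, at E16 against E13.

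**Figure D3:**
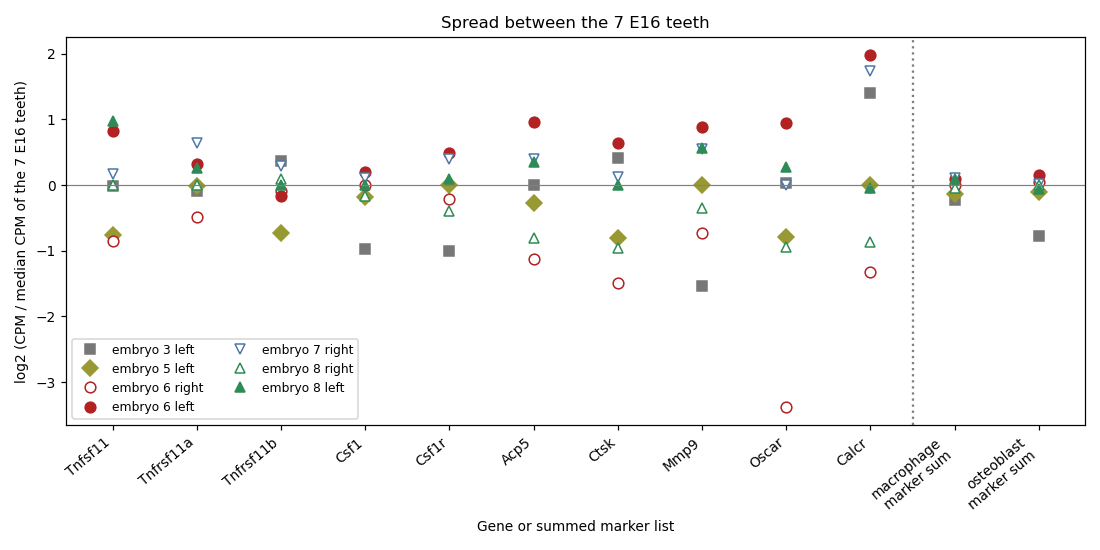
Level of each gene and of the summed macrophage and osteoblast markers in each E16 tooth, as log2 of its CPM over the median of the 7 teeth (filled symbols are left teeth, open symbols right teeth). The right tooth of embryo 6 is lowest for Acp5, Ctsk, and Oscar, and the macrophage sums lie close to 0 in all teeth.

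Over stages, the macrophage markers also moved with the members. Their summed level was 44.94 to 74.46 CPM at E13 (median 54.4), 74.26 to 109.3 at E14 (median 92.5), and 109.4 to 138.3 at E16. Of the 13 markers, 7 rose at E14 against E13, 3 rose at E16 against E14, and 11 rose at E16 against E13. None fell (edgeR, adjusted p below 0.05). Over all tested genes, the shares that rose were 11.3%, 15%, and 21.6%. From E13 to E16 the log2 fold change was 1.39 ± 0.21 for Lyz2, a lysozyme of myeloid cells, and 1.38 ± 0.13 for the mannose receptor Mrc1. The part of these cells in the changes of Csf1r, Tnfrsf11a, and Mmp9 was not tested.

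Neutrophil markers, of interest because neutrophils also make Mmp9, summed to at most 10.97 CPM in any tooth of E13, E14, and E16, and Ly6g had 0 HTSeq counts in all. Of these 9 markers 2 passed the filter, and neither passed the test in these 3 comparisons. Osteoblast markers had 2 of 8 tested genes rising at E14 against E13 (Spp1 by 4.68 ± 0.47 and Dmp1 by 2.78 ± 0.38 on the log2 scale), 1 rising and 1 falling at E16 against E14 (Alpl and Phex), and 4 rising and 1 falling at E16 against E13. The late osteoblast genes Bglap and Bglap2 did not pass the filter, with at most 31 counts in a library. Epithelium markers rose in each comparison (5 of 5), while 1, 4, and 3 of the 5 mesenchyme markers fell at E14 against E13, E16 against E14, and E16 against E13. Markers of surrounding tissue moved with stage as well. Among the 3 tested cartilage markers, Col2a1, the collagen of cartilage, fell in each comparison. Its log2 fold changes were -1.005, -2.10, and -3.11 at E14 against E13, E16 against E14, and E16 against E13. Col9a1 fell as well at E14 against E13 (-1.895) and E16 against E13 (-1.493). In contrast, Acan rose at E16 against E14 (2.335) and E16 against E13 (2.661). Of the 7 tested muscle markers, 3 (Myod1, Myog, and Pax7) fell from E13 to E16, by 3.97 to 4.78 on the log2 scale. The E13 left tooth of embryo 7 had a muscle sum of 239.4 CPM, against 4.409 to 30.92 CPM in the other E13 teeth, and without it 7 of 10 members rose at E14 against E13 and 8 at E16 against E13. The part of these tissue shares in the members' values was not tested.

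Other genes of osteoclast formation were read from the same fit in lists by function. Together 58 genes other than the members were listed and 54 tested, of which 21 rose at E14 against E13, 30 rose and 4 fell at E16 against E14, and 35 rose and 3 fell at E16 against E13. The medians of their log2 fold changes were 0.28, 0.32, and 0.50. Over all tested genes, 11.3%, 15%, and 21.6% rose and 8.47%, 13.1%, and 19.6% fell. The lists were chosen with earlier results of these data known, so that their counts are a description and not a test.

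For costimulation, adhesion, and fusion, 5, 8, and 9 of the 9 genes rose in these comparisons (median log2 fold change 0.85, 0.90, and 1.76). Siglec15, a receptor of differentiating osteoclasts, increased from 0.04 ± 0.06 CPM (SD) at E13 to 1.30 ± 0.57 at E16. Dcstamp and Ocstamp, membrane proteins needed for precursor fusion, rose by 2.81 ± 0.51 and 2.57 ± 0.49 on the log2 scale from E13 to E16 (edgeR adjusted p = 9.56e-05 and 0.000142). The size of the Ocstamp change depended on the counting. Its mean was 0.70 ± 0.67 CPM (SD) at E13 and 4.13 ± 2.13 at E16 in the HTSeq counts. In the estimated counts of the same teeth it was 5.65 ± 1.79 and 9.19 ± 2.23 CPM. Dcstamp was not tested in the estimated counts. Tyrobp, the adaptor through which several of these receptors signal, rose by 2.42 ± 0.25.

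Among 7 myeloid and osteoclast transcription factors, 6 rose in each comparison. Spi1, which encodes PU.1, rose from 2.45 ± 1.32 CPM (SD) at E13 to 5.10 ± 1.59 at E14 and 9.28 ± 3.57 at E16. Prdm1, a repressor of genes that inhibit osteoclast formation, rose by 1.92 ± 0.11 on the log2 scale at E14 (edgeR adjusted p = 5.68e-12). Bcl6, a repressor that restrains osteoclast formation, rose as well, by 1.46 ± 0.14 from E13 to E16.

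Of 12 genes of the resorption machinery, 3 rose at E14 against E13, 9 at E16 against E14, and 8 at E16 against E13. Atp6v0d2, a proton pump subunit of osteoclasts, rose by 1.62 ± 0.27 and then 1.71 ± 0.25 on the log2 scale. The sodium-proton exchanger Slc9b2 had 2.64 ± 0.68 CPM (SD) at E13 and 9.35 ± 3.83 at E16. Tcirg1 and Ostm1, which serve the acid secretion of the ruffled border, rose by 0.61 ± 0.11 and 0.69 ± 0.14 at E16 against E14, and the proton supplier Car2 rose by 0.74 ± 0.11 at E14.

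In the intracellular RANK pathway, 4 of 19 genes rose at E14 against E13, and 5 rose and 2 fell at E16 against E14. At E16 against E13, 9 rose and 1 fell. Among all tested genes, 19.7%, 28.1%, and 41.3% changed in either direction in these comparisons. The median log2 fold changes of the list were 0.09, 0.03, and 0.16. Nfatc1, the transcription factor that RANK induces, rose by 0.52 ± 0.15 at E14 and 0.45 ± 0.15 at E16. Fos, an immediate early gene needed for osteoclast formation, rose by 3.71 ± 0.67 at E14 and then fell by 1.91 on the log2 scale, with 3.66 to 191 CPM over the E14 teeth. These genes act in many cell types of the tooth.

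Among 10 regulators of RANK ligand, 6 were tested. Pthlh, which acts on stromal cells to raise RANK ligand, rose from 9.77 ± 2.07 CPM (SD) at E13 to 38.9 ± 13.8 at E16, and the vitamin D receptor Vdr rose from 1.62 ± 0.46 to 12.7 ± 4.11. Pth1r, the receptor of Pthlh, and Il1r1, a receptor of interleukin-1, fell by 0.82 and 0.52 on the log2 scale from E13 to E16 (edgeR adjusted p = 0.000388 and 0.00213). The cytokines Il6, Il11, Il1b, and Il17a did not pass the filter, and Il17a had 0 counts in every tooth. Of the 6 genes that the study lists for eruption (Csf1, Fos, Ostm1, Pthlh, Tcirg1, Traf6), 3 rose at E14 against E13, 3 rose and 1 fell at E16 against E14, and 5 rose at E16 against E13.

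**Figure D4:**
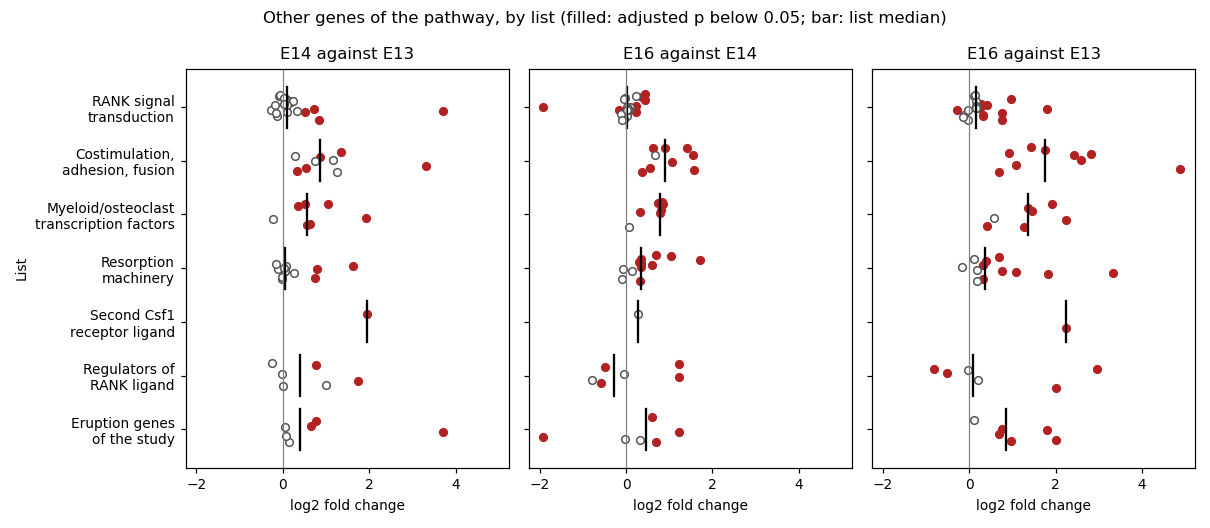
Log2 fold change of each tested gene of the 7 lists in the 3 comparisons (horizontal axes), with list medians as vertical bars. Filled points passed an adjusted p of 0.05, and the costimulation and fusion list has all 9 genes filled and to the right of 0 at E16 against E13.

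The E15 teeth were compared with E13 and E16 within the salmon table, where Tnfsf11 is not listed and Calcr did not pass the filter. At E15 against E13, 7 of the 8 tested members rose, where 18.3% of 13447 tested genes rose, 8.49% fell, and 26.8% changed. At E16 against E15, 4 of 8 rose, where 3.64% of tested genes rose, 2.69% fell, and 6.33% changed. The median log2 fold change of the members was 1.31 and 0.75. The E15 samples carry labels of another form than the rest, so that stage and any difference between these sets of samples cannot be told apart in either comparison.

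Csf1, Csf1r, and Tnfrsf11b rose from E13 to E15, and none of them passed the test between E15 and E16. Csf1 was 26.9 ± 1.68 CPM (SD, n = 7) at E13, 53.1 ± 7.71 (n = 6) at E15, and 53.7 ± 10.9 (n = 7) at E16, with a log2 fold change of 0.02 ± 0.12 at E16 against E15 (edgeR adjusted p = 0.975). Csf1r was 14.03 ± 3.46, 39.3 ± 4.42, and 45.1 ± 13.3 CPM, with 0.20 ± 0.18 (adjusted p = 0.647). Tnfrsf11b was 2.98 ± 0.81, 6.54 ± 2.14, and 4.58 ± 1.30 CPM, with -0.52 ± 0.24 (adjusted p = 0.259).

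Acp5, Ctsk, Mmp9, and Oscar rose from E15 to E16. Acp5 ranged from 14.49 to 24.7 CPM at E15 and from 28.1 to 121 at E16, with no overlap and a log2 fold change of 1.85 ± 0.29 (edgeR adjusted p = 0.000198). Ctsk ranged from 31.1 to 47.1 CPM at E15 and from 38.9 to 177 at E16, with 1.53 ± 0.27 (adjusted p = 0.000725). Oscar had 5 to 16 counts at E15 and 8 to 150 at E16, with 2.54 ± 0.59 (adjusted p = 0.00816). None of the 10 tested macrophage markers passed the test between E15 and E16, where only 6.33% of all tested genes changed. The median log2 fold change of these markers was -0.07. From E13 to E15, 9 of them rose, where 18.3% of all tested genes rose. Of the 3 macrophage markers that rose at E16 against E14, Mrc1 was among these 10, whereas Cd68 and Lyz2 were not.

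The 5 neutrophil markers listed in the salmon table summed to between 1.349 and 34.5 CPM over the E15 teeth, against at most 12.2 CPM at E13, and S100a8 rose from E13 to E15 by 1.84 ± 0.63 on the log2 scale (edgeR adjusted p = 0.0327). The E15 left tooth of embryo 3 had both the highest neutrophil sum and the highest Mmp9 of its stage (104.1 CPM, against 63.15 to 85.25 in the others). The part of neutrophils in the Mmp9 level was not tested. That tooth was also the highest of its stage for Acp5 (24.71 CPM, against 14.49 to 22.93 in the others). Mmp9 rose from E13 to E15 by 1.61 ± 0.28 (adjusted p = 0.000139), and without that tooth by 1.53 (edgeR adjusted p = 0.000465, range 4.02e-06 to 0.000505 over the alternatives).

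Mmp9 changed by 0.97 ± 0.28 from E15 to E16 (edgeR adjusted p = 0.0393, range 0.00442 to 0.105 over the alternatives). That call was lost without any 1 of the E15 teeth of embryos 1, 5, 6, and 8 or of the E16 left teeth of embryos 5, 6, and 8 or right tooth of embryo 7 (adjusted p between 0.0565 and 0.105). Tnfrsf11a changed by 0.52 ± 0.18 (adjusted p = 0.0875), and passed the test without the E16 right tooth of embryo 6 (0.0438) and with DESeq2 (0.035, range 0.035 to 0.208 over the alternatives).

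**Figure D5:**
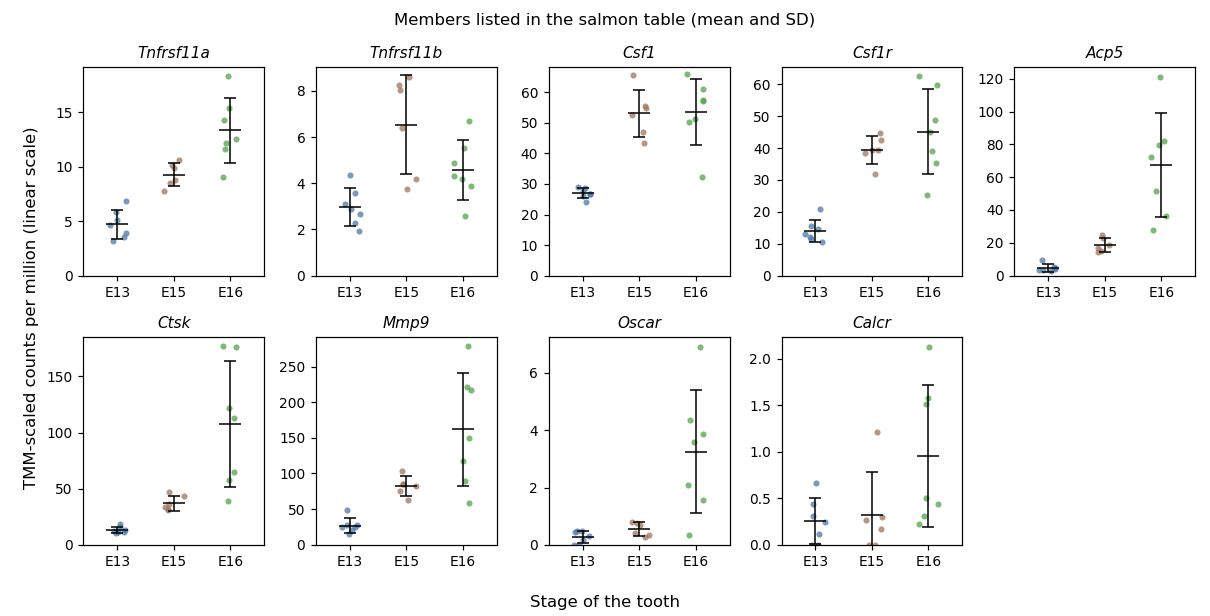
TMM-scaled CPM (linear axes from 0) of the 9 members listed in the salmon table at E13, E15, and E16. Each point is 1 tooth and bars are the mean and SD (cut at 0), and the E15 teeth lie near the E16 teeth for Csf1 and Csf1r and below most of them for Acp5 and Ctsk.

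For each member, the 3 protein-coding genes most similar to it over the 21 teeth were found by Pearson's r of log2 CPM. Acp5 and Ctsk were each other's closest gene (r = 0.972), and Acp5 was followed by F13a1 (0.964) and S100b (0.955). The closest genes to Csf1r were Mmp9 (0.962), Rftn1 (0.95), and Clec11a (0.949), and those to Mmp9 were Clec11a (0.975), Mylk (0.966), and Csf1r (0.962). Tnfrsf11a was closest to Podnl1 (0.951) and Ctsk (0.933), and Oscar was closest to Cp (0.874), Acp5 (0.869), and Ctsk (0.86).

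No member was among the 3 genes closest to the ligands or the decoy, and the fusion gene Dcstamp ranked 4 for Tnfsf11 (0.663). With the mean of each stage removed, Dcstamp was not among the 5 genes closest to Tnfsf11. Csf1 was closest to Lmna (0.969), Myo1d (0.964), and Cebpb (0.955), Tnfrsf11b to Slc6a4 (0.814), and Tnfsf11 to Itpr1 (0.709), Lrrn3 (0.685), and Cpne8 (0.681). The points share their stages, libraries, and embryos, so that these values describe likeness of pattern over 3 stages and carry no test.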

How the data were processed

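Bulk RNAseq of single first molar tooth germs of C57BL/6JOlaHsd mice was analyzed. The reads were filtered by the authors with FastQC, AfterQC, and Trimmomatic, aligned with STAR to GRCm38 (Ensembl release 90), and counted per gene with HTSeq. These deposited counts are not normalized and cover 52636 genes in 21 teeth at E13, E14, and E16. A second deposited table holds estimated counts made with salmon, for 14185 genes of 20 teeth at E13, E15, and E16. Its index and choice of genes are not given in the sources used here. Of 28 samples, 1 E15 sample is not analysed here. Stage, embryo, and side were taken from the labels.

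Totals per library were 17814073 to 27115729 counts and 14965319 to 24056056 estimated counts. Symbols, coordinates, and exon lengths are from GENCODE (GRCm38), which lacks 147 of the deposited identifiers. Stages were compared in edgeR 4.0.16 (R 4.3.3) by its quasi-likelihood F test, with TMM scaling, the filterByExpr filter, and Benjamini-Hochberg adjustment over all tested genes (threshold 0.05), in one fit per table. The biological coefficient of variation was 21.2%. The SE of a log2 fold change is its size over the square root of F. CPM are TMM-scaled and TPM are not. The ratio of Tnfsf11 to Tnfrsf11b used a pseudocount of 0.5 counts and an exact permutation test over the teeth of 2 stages. Likeness used log2(CPM + 0.1). The tests were tested on simulated data.

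The text names all 10 members, up to 4 called genes per list with the largest change in each comparison, and the 3 most similar genes per member. Some genes of the lists are not reported here by name. The members and lists were chosen with earlier results of these data known. Ly6g, the genes that did not pass the filter, and the gene of rank 4 for Tnfsf11 fall outside this rule. They were named here after their values were seen. The alternatives were DESeq2 (version 1.42.0), its size factors, genes of any count, the teeth of an embryo summed or averaged, side or embryo number as a factor, 2 stages per fit, the salmon table, a pseudocount of 5 counts, medians, and each tooth left out in turn.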

Additional observations from a re-analysis of the deposited data

Results flagged for a closer look

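Of 39 groups of 6 or 7 teeth (a member at a stage), 7 had 1 tooth far from the others by Dixon's criterion, and chance flags about 1 in 20 groups. The left tooth of embryo 3 at E13 was highest of its stage for Acp5 (8.16 CPM) and Mmp9 (41.7 CPM). The right tooth of embryo 2 at E14 was highest for Csf1r (26.4 CPM) and lowest for Ctsk (20.2 CPM), and the right tooth of embryo 1 at E14 was highest for Tnfrsf11b (7.71 CPM). The left tooth of embryo 3 at E16, which had the fewest counts, was lowest for Csf1 (26.0 CPM), and the left tooth of embryo 5 at E15 was highest for Calcr (1.21 CPM in the salmon table, 24 estimated counts).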

How the results depend on the processing

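The counts of members called kept within 1.5 times the reported count under every alternative computed. With embryo number as a replicate block they were 6, 5, and 7 at E14 against E13, E16 against E14, and E16 against E13, in place of 7, 7, and 8. The calls lost there were Tnfrsf11a at E14 against E13 (edgeR adjusted p = 0.128), Mmp9 (0.0562) and Calcr (0.0532) at E16 against E14, and Tnfrsf11b at E16 against E13 (0.0569). An embryo dissected at 1 stage cannot be the same animal at another, so that the number was not taken to pair teeth across stages. Teeth that share it across stages correlated between -0.09 and 0.199 in their deviations from the stage means. Left and right teeth of the same embryo correlated at 0.166, -0.0722, and -0.0883. These values lie within that range, so that the correlation cannot tell pairs from other teeth. With that block the log2 fold change of Tnfsf11 at E14 against E13 was -0.15 in place of 0.06. Leaving out 1 tooth at a time, it ranged from -0.027 to 0.18, and that of Csf1 at E16 against E15 from -0.0404 to 0.11, neither of which passed the test. The difference in log2 ratio of Tnfsf11 to Tnfrsf11b at E14 against E13 ranged from -0.87 to -0.52. The cause was not tested. The ratio could not be computed in the salmon table, where Tnfsf11 is not listed. The counts limit Oscar at E13 and Calcr at all stages, for which a library holds at most 12 and 47 HTSeq counts.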
